A study of Mus musculus with 4 samples.

Results

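The genes described here were 9 interferon-inducible GTPases, Gbp2, Gbp3, Gbp6, Gbp7, Irgm1, Irgm2, Igtp, Iigp1 and Tgtp1, followed in cardiac mesenchymal progenitors (CMPs) before and after transduction with Oct4, Sox2, Klf4 and c-Myc (OSKM). They were found by the gene name that the array design gives each probe, with Tgtp taken as an older name of Tgtp1. The array carried 13 probes for them, 12 of which were well above background on at least 1 array and were kept. All 9 genes were therefore measured, among 16657 genes in all. The CMPs were cells expressing Sca-1 from the hearts of adult wild-type C57BL/6 mice, obtained on a density gradient and grown with 10% serum and 40 ng/ml bFGF per the labels. One array held untreated cells (control, day 0), and the other arrays held cells infected with Sendai virus encoding OSKM (OSKM-CMPs) at day 4, day 6 and day 8, counted from the day after infection. On that day, by the paper's methods, infected cells were moved to a reprogramming medium with knockout serum replacement and serum. Each condition was thus 1 array of total RNA, with no replicate, and no p-value can be given. The arrays followed how gene expression in CMPs changed after OSKM transduction.

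Interferon-inducible GTPases are proteins of cell-autonomous immunity, made in large amounts when interferon reaches a cell. The guanylate-binding proteins (GBPs) assemble as coats on vacuoles and on microbes in the cytosol. Among the smaller immunity-related GTPases, Irgm1, Irgm2 and Igtp (also called Irgm3) mark the cell's own membranes and hold the effector GTPases in check, while effectors such as Iigp1 (Irga6) and Tgtp1 (Irgb6) load onto the vacuoles of intracellular parasites. Type I interferon acts through a complex with Stat2 and Irf9 that binds the interferon-stimulated response element, and interferon gamma acts through the gamma-activated site. Irf1 also binds the former element.

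The genes lie in clusters of related copies. By the mm9 positions printed with the probes, Gbp2 (chr3:142300719-142300778), Gbp3 (chr3:142236032-142236091) and Gbp7 (chr3:142209379-142209438) were neighbours on chromosome 3. The probes of Gbp6 (chr5:105700056-105700115 and chr5:105702128-105702187) were on chromosome 5. On chromosome 11, Irgm1 (chr11:48679069-48679128 and chr11:48679632-48679691) and Tgtp1 (chr11:48799587-48799646) formed one group, and Igtp (chr11:58020927-58020986) and Irgm2 (chr11:58036093-58036152) another.

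The RefSeq promoter table for build GRCm38.p6, which gives 250 bases before and 50 after each transcript start, held windows for 7 of the 9 genes. It held none for Gbp6 and Iigp1. The bases before the start are shown because the elements through which both interferon arms act were found in them. Each stretch begins 110 bases before the start and reads 5′ to 3′ on the gene's strand, and capitals mark matches to the interferon-stimulated response element (GAAANNGAAA on either strand) or to the gamma-activated site (TTCNNNGAA, which reads the same on both strands). The stretches come from chr3:142620553-142620662 (plus strand) for Gbp2, chr3:142559934-142560015 (plus) for Gbp3, chr3:142530226-142530335 (plus) for Gbp7, chr11:48871421-48871530 (minus) for Irgm1, chr11:58214867-58214976 (plus) for Irgm2, chr11:58199446-58199555 (plus) for Igtp and chr11:48992247-48992356 (minus) for Tgtp1.
Gbp2: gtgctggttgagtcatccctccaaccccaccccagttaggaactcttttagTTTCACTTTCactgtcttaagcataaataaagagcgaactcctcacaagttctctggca
Gbp3: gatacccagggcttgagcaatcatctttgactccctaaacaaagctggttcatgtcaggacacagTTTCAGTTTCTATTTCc
Gbp7: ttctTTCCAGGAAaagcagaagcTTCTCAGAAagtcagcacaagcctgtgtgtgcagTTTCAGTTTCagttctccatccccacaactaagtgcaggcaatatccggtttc
Irgm1: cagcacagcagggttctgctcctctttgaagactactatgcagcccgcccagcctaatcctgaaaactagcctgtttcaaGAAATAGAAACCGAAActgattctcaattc
Irgm2: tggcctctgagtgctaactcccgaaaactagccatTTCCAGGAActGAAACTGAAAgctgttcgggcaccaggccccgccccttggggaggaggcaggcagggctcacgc
Igtp: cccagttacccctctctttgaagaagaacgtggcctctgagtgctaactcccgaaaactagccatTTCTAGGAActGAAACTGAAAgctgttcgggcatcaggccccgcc
Tgtp1: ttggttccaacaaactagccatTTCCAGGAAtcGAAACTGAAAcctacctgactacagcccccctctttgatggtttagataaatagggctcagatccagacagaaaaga

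All 7 genes held the response element in at least 1 window, whereas 3.99% of all 27025 genes with a window did. By window the share was 3.44% of all 32851. Its first base lay 59 bases before the start in Gbp2, 53 in Gbp7, 64 in Irgm2, 34 in Igtp and 77 in Tgtp1. Gbp3 and Irgm1 each held 2 overlapping copies, beginning 45 and 39 bases before the start in Gbp3 and 30 and 24 in Irgm1. Gbp3 has a further window, from another transcript start, with neither motif. The gamma-activated site was found in Gbp7 (2 copies), Irgm2, Igtp and Tgtp1, 4 of the 7, against 9.55% of all genes with a window (8.30% of all windows).

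Irgm2, Igtp and Tgtp1 shared one arrangement, in which the gamma-activated site began 11 bases before the response element. This spacing was noticed in these sequences and then counted. It occurred in 5 of the 32851 windows, all on chromosome 11, and the other 2 belonged to Tgtp2 and Gm12185, which are also immunity-related GTPase genes. Igtp and Irgm2 had 61 consecutive identical bases in their windows, with the first base 30 bases further along in Igtp. The stretch began at position -11 from the start in Igtp and -41 in Irgm2, after the motif matches, and held neither motif. Shared sequence of this kind means that these windows are not independent of one another. Among the 13005 measured genes with a window, 3.68% held the response element, as did 5.94% of those at least 2-fold higher at day 8 and 3.14% of those at least 2-fold lower. The gamma-activated site was held by 8.57% of them, by 8.54% of those higher and by 8.13% of those lower, so its share hardly differed. A match is a description of the letters and not evidence of binding.

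**Figure D1:**
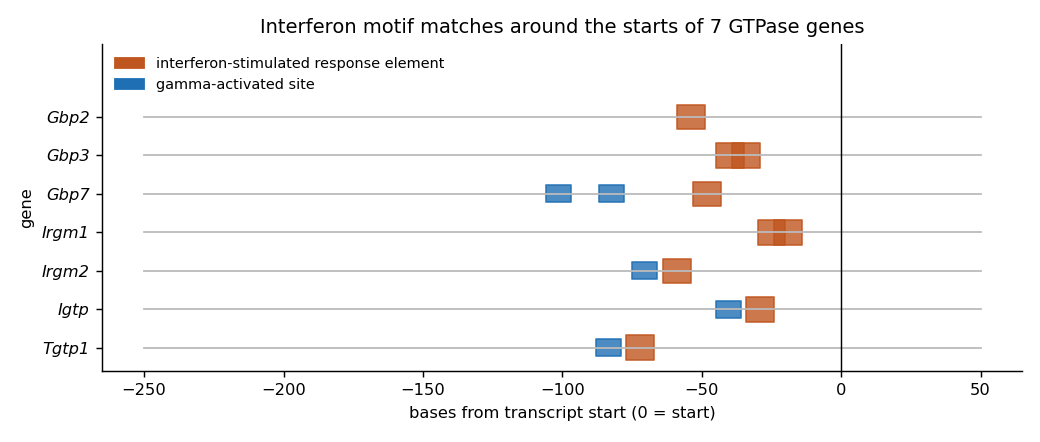
Matches to the interferon-stimulated response element (orange) and the gamma-activated site (blue) in the first RefSeq window of 7 genes, with the distance from the transcript start in bases on the horizontal axis and 1 gene per row. Every gene has a response element within 77 bases before the start, and in Irgm2, Igtp and Tgtp1 a gamma-activated site begins 11 bases before it.

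The levels below are log2 processed signals relative to the 75th percentile of their own array, so a level of 0 is the signal that 75% of probes lie under. Errors are those of the scanner software's error model for 1 array, combined over both arrays for a change, and contain no spread between cultures. A probe's level depends on its sequence, so levels are compared between arrays and not between genes. The control array had 56.6% of 55681 probes well above background, and the OSKM arrays had 56.7% to 59.6%. No spot was saturated. A probe that the scanner software did not call well above background is written here as dim or at background. Every kept probe of the 9 genes was well above background on all 4 arrays, so none of their changes is a bound.

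At day 4, 8 of the 9 genes were at least 2-fold higher than in control CMPs, with 9.73% of all genes that much higher. At day 6 it was again 8 of 9 (10.8% of all genes), and at day 8 also 8 of 9 (11.9% of all genes). The same 8 genes were past 2-fold on each day, and Irgm1 was the exception. No member was 2-fold lower on any day, against 8.12%, 9.78% and 10.5% of all genes. On the log2 scale the 9 genes had median changes of 1.85, 2.32 and 2.42 on the 3 successive days, where the medians of all genes were 0.00, -0.02 and -0.04. With a threshold of 3-fold at day 8, 7 of 9 remained (6.54% of all genes), since Irgm2 dropped out. A threshold of 1.5-fold gave 8 of 9 (20.4%).

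**Figure D2:**
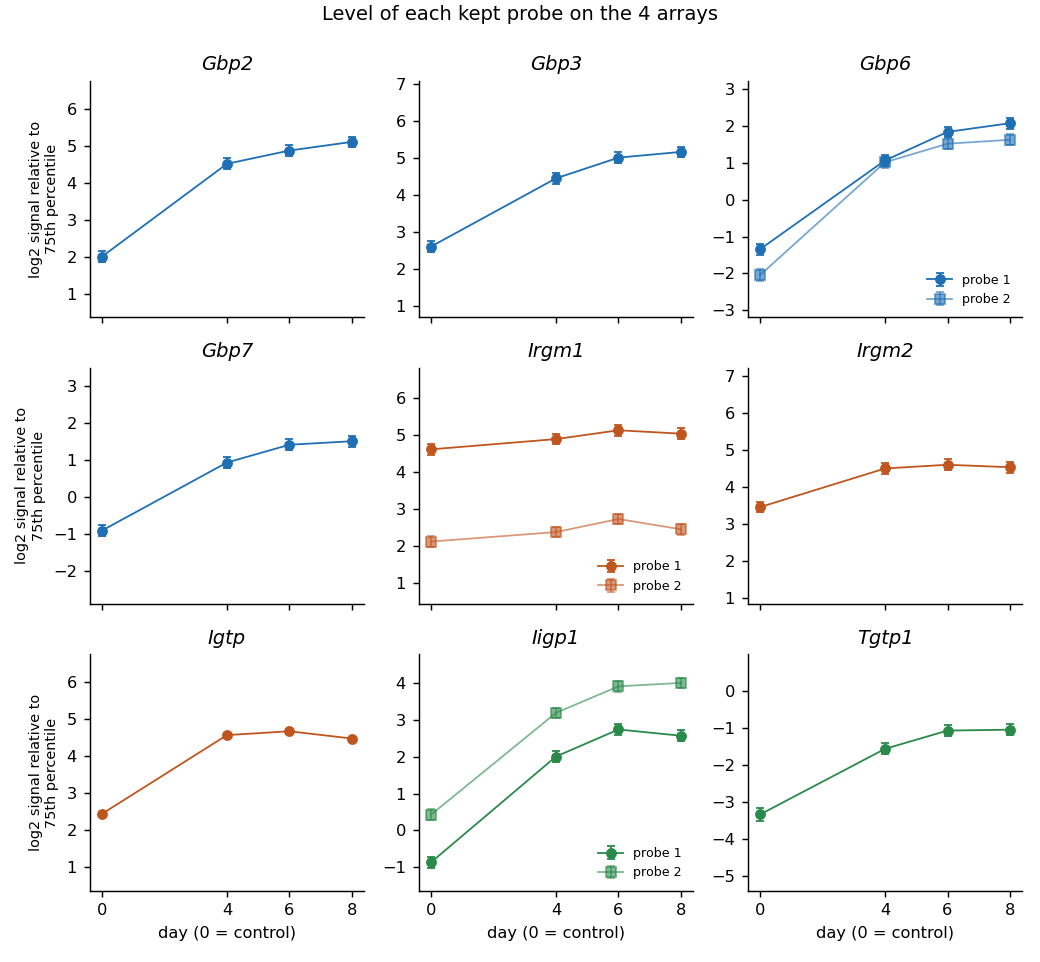
Level of each kept probe (log2 signal relative to the 75th percentile of the array) against the day, with 1 panel per gene and the control array at day 0. Points are single arrays, bars are the error model's SD, and every panel spans the same range of log2 units. Most lines climb between the control and day 4 and flatten afterwards, and those of Irgm1 stay nearly level.

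Gbp2, which coats vacuoles and bacteria and recruits other GBPs, had levels of 2.00, 4.52, 4.88 and 5.11 on the control, day 4, day 6 and day 8 arrays. It was 5.70-fold higher than control at day 4 and 8.61-fold higher at day 8, a log2 change of 3.11 ± 0.20. The levels of Gbp3, its neighbour on chromosome 3, were 2.60, 4.45, 5.01 and 5.16. Gbp3 thus rose 3.60-fold by day 4 and 5.91-fold by day 8 (log2 change 2.56 ± 0.20). Both genes were already above the 75th percentile in untreated cells.

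Gbp6, from the cluster on chromosome 5, was below the 75th percentile in control CMPs and above it on the OSKM arrays. Its first probe read -1.34, 1.06, 1.83 and 2.07 on the 4 arrays, and its second -2.04, 1.01, 1.51 and 1.62. The mean of the 2 probes was 6.62-fold higher at day 4 and 11.6-fold higher at day 8 (log2 change 3.54 ± 0.15). The second probe also lists the transcript of Gbp10, a near-identical copy, so its signal may come from both genes. The first lists Gbp6 alone, and its change at day 8 was 3.41. With normexp the mean change of Gbp6 at day 8 was 2.94, under those of Iigp1 (3.32) and Gbp2 (3.19).

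Gbp7, a GBP of the chromosome 3 cluster, crossed from below to above the 75th percentile, with levels of -0.91, 0.93, 1.41 and 1.51. It was 3.58-fold higher at day 4 and 5.34-fold higher at day 8 (log2 change 2.42 ± 0.20). A further Gbp7 probe, at another position (chr3:142213888-142213947 in mm9), stayed at background on every array. When that probe was averaged in, the change at day 8 was 1.16 and the change at day 4 was 0.94, under 2-fold. The 4 GBPs together had median changes of 2.18, 2.64 and 2.83 at day 4, day 6 and day 8.

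Irgm1, Irgm2 and Igtp, the regulatory members, differed from each other. Irgm1, which protects host membranes and is required for control of several intracellular bacteria, read 4.62, 4.90, 5.14 and 5.05 with its first probe. Its second probe read 2.12, 2.38, 2.74 and 2.46. The mean changes on the successive days were 0.27, 0.56 and 0.38 (each ± 0.14), and the last of these corresponded to 1.30-fold. Both probes were higher on all 3 OSKM arrays than on the control array, and neither passed 2-fold.

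Irgm2 read 3.46, 4.51, 4.61 and 4.54 on the 4 arrays. Its changes of 1.05, 1.15 and 1.08 (each ± 0.20) lay within 1 error of the 2-fold line. When each array was centred on its median in place of the 75th percentile, all genes shifted by -0.27 at day 8, and the change of Irgm2 before that shift was taken out was 0.81. Igtp, printed in 10 spots (9 of them used on the control array) and so measured with the smallest error, read 2.44, 4.57, 4.68 and 4.48. It was 4.38-fold higher than control at day 4 and 4.11-fold higher at day 8 (log2 change 2.04 ± 0.07).

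The 2 effector members were past 2-fold higher on each day. Iigp1, a myristoylated GTPase that disrupts parasite vacuoles, read -0.86, 2.00, 2.73 and 2.57 with its first probe and 0.43, 3.19, 3.90 and 4.00 with its second. The mean was 7.01-fold higher at day 4 and 11.3-fold higher at day 8 (log2 change 3.50 ± 0.14). Taken apart, the probes gave 3.43 and 3.57 for that change. Tgtp1, read by 1 probe of low signal that was well above background on all 4 arrays, had levels of -3.34, -1.56, -1.07 and -1.05. It was 3.42-fold higher at day 4 and 4.90-fold higher at day 8 (log2 change 2.29 ± 0.23). With normexp background correction and quantile normalization its changes were 0.87 at day 4 and 1.21 at day 8. Its probe also lists the transcript of Tgtp2, a near-identical copy, and the pair cannot be told apart by this probe.

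**Figure D3:**
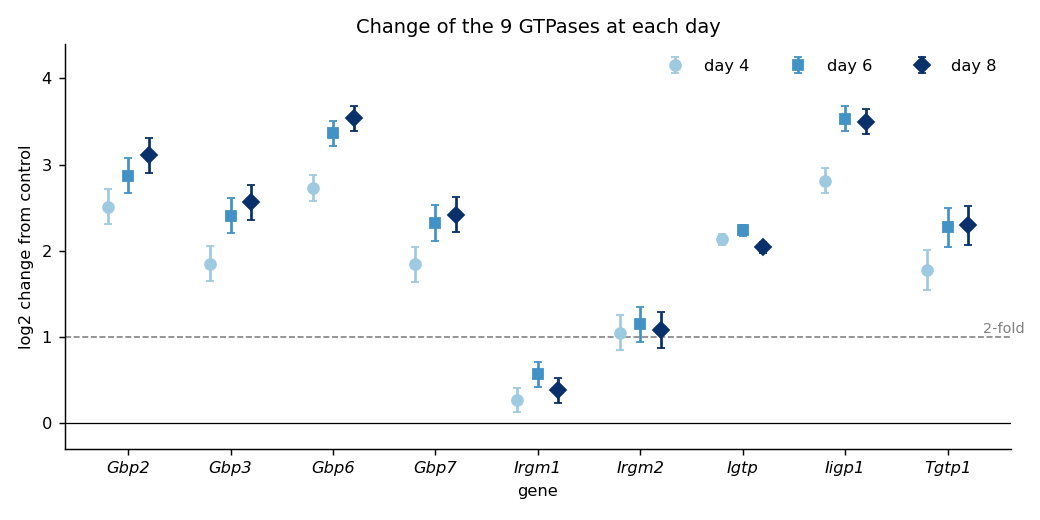
Log2 change from the control array of the 9 genes at day 4 (circles), day 6 (squares) and day 8 (diamonds), with bars for the error model's SD of a difference between 2 arrays and a dashed line at 2-fold. Irgm1 lies below the line at all 3 days, Irgm2 on it, and the other 7 genes between 1.78 and 3.54.

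On the log2 scale, most of the difference was present by day 4. The log2 change at day 4 amounted to between 70.6% (Irgm1) and 105% (Igtp) of the log2 change at day 8. For Irgm1 this is a ratio of 0.27 to 0.38, each ± 0.14, and so is imprecise. As signal the share was smaller for the genes that rose most, with Gbp6 6.62-fold higher at day 4 and 11.6-fold at day 8, and Iigp1 7.01-fold and 11.3-fold. From day 4 to day 6 all 9 genes moved up, by 0.10 (Irgm2 and Igtp) to 0.72 (Iigp1), and 0 of 9 passed 2-fold (1.95% of all genes did). At 1.5-fold it was 2 of 9 (5.22% of all genes). The step exceeded 2 errors for Gbp3, Gbp6, Gbp7, Iigp1, Irgm1 and Tgtp1. From day 6 to day 8, changes ran from -0.20 (Igtp) to 0.23 (Gbp2), and again 0 of 9 passed 2-fold (1.09% of all genes). All 4 GBPs and Tgtp1 had positive differences in this last step, and Irgm1, Irgm2, Igtp and Iigp1 had negative ones. Only that of Igtp, -0.20 ± 0.06, exceeded 2 errors. These errors shrink with the number of spots and probes averaged, so which genes pass 2 errors depends partly on that number. Gbp2, read by 1 probe, had 0.36 ± 0.20 in the first step and 0.23 ± 0.20 in the last and passed in neither. Irgm1, read by 2 probes, passed in the first with a smaller step of 0.30 ± 0.14.

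Ranked by the change at day 8, the order was Gbp6, Iigp1, Gbp2, Gbp3, Gbp7, Tgtp1, Igtp, Irgm2 and Irgm1. Gbp6 and Iigp1 differed by 0.04, with an error of 0.21, and were not separated. Gbp3, Gbp7 and Tgtp1 were also not separated, with gaps of 0.14 and 0.12 against errors of 0.29 and 0.31. Igtp lay 0.26 under Tgtp1 with an error of 0.24, and it was above Tgtp1 with normexp and with quantile normalization (2.16 against 1.21 and 2.13). It was also above Gbp7 with normexp (2.07) and when no probe filter was used (1.16). The largest steps were those from Igtp down to Irgm2 (0.96 ± 0.21) and from Irgm2 to Irgm1 (0.70 ± 0.25). Igtp and Irgm2, whose start regions share the 61 bases given above, were thus separated by a gap larger than 4 errors. Among all genes, Gbp6 ranked 236 and Iigp1 243 of 16657 by increase, while Irgm1 ranked 4666.

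**Figure D4:**
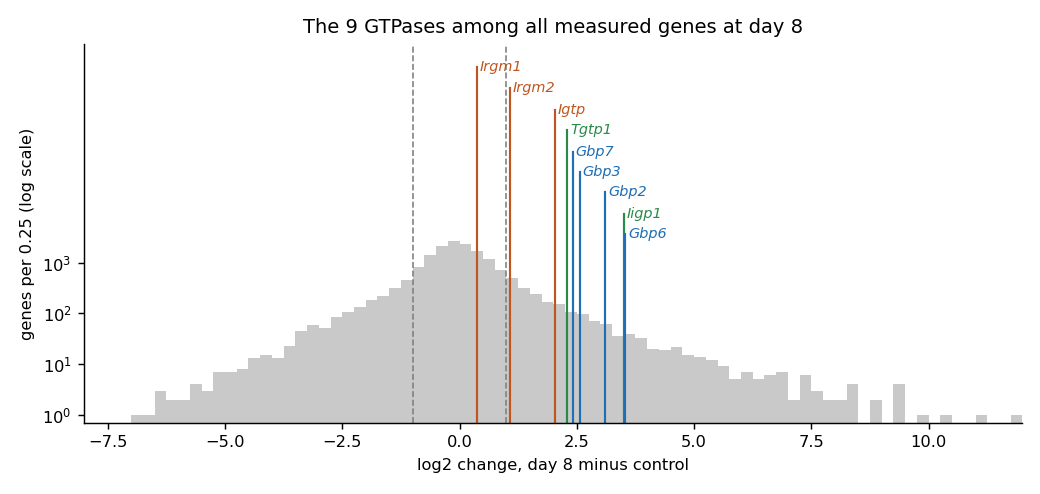
Histogram of the log2 change from control to day 8 over all 16657 genes (grey, bins of 0.25, number of genes on a log scale), with dashed lines at 2-fold up and down. Coloured lines mark the GBPs (blue), the regulatory members (orange) and the effector members (green), and their heights carry no meaning. Irgm1 lies inside the bulk of genes, and the other members lie in the right flank.

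Other GTPases of the same families were read from lists set beside the 9 genes. For these lists and the interferon lists below, 11.9% of all genes were higher at day 8 and 10.5% lower. Of 7 other GBPs, 6 were measured, and 4 were past 2-fold higher at day 8 (Gbp4, Gbp5, Gbp10 and Gbp11) with none lower. The probe of Gbp10 also lists the Gbp6 transcript, so the 2 genes may share this signal. Their median change was 1.93. Gbp11 was not well above background in control CMPs and was at least 16.8-fold higher at day 8, and Gbp4, likewise dim in the control, was at least 9.23-fold higher. Gbp5, which acts in inflammasome assembly, had a mean log2 change of 2.01 ± 0.15, but its 2 probes gave 3.42 and 0.60 and so disagreed. Gbp9 had a change of 0.31, and Gbp8 stayed at background on every array.

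Of 10 other immunity-related GTPases, 8 were measured, with 4 past 2-fold higher at day 8 and 1 lower. Gm12250, known as Irgb10, had the largest change of the list, with levels of -3.13, 1.05, 1.56 and 1.44 and a 23.8-fold increase by day 8 (log2 change 4.57 ± 0.22). F830016B08Rik was 11.9-fold higher and Gm4951 9.27-fold higher. Tgtp2 was also past 2-fold, with a mean change of 2.55, and its probes list the Tgtp1 transcript. The first of them read 3.22, 5.80, 6.37 and 6.28 on the 4 arrays, far brighter than the Tgtp1 probe. The second read -3.88, -2.40, -1.93 and -1.82. Their changes at day 8 were 3.05 and 2.05. The gene that was lower at day 8 was 9930111J21Rik2, which read -2.59 in control and -4.47 at day 8. 9930111J21Rik1 was past 2-fold lower at day 4 and day 6, with changes of -1.11 and -1.05, and stood at -0.84 at day 8. Ifi47, an immunity-related GTPase that was not on the list and was looked up after values were seen, read 2.99, 4.49, 4.82 and 4.59 and was 3.02-fold higher at day 8.

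Among larger GTPases, Mx1, an antiviral GTPase, was 95.6-fold higher at day 8 (log2 change 6.58 ± 0.25) and Mx2 was 9.41-fold higher. Gvin1, a very large inducible GTPase, had a change of 0.05 ± 0.14. Of 10 dynamins, atlastins and related GTPases not known as interferon-inducible, 1 was past 2-fold higher at day 8 and none lower. That gene was Dnm3, which was dim in the control, with a change of at least 1.07, while Dnm1 had a change of 0.92 and Dnm2 of -0.76. The median of this list was 0.14 at day 8, and it was -0.13 when the brightest probe stood for each gene.

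The interferons and their signalling genes were read next. Ifng stayed at background on all 4 arrays, whereas Ifnb1, the gene of interferon beta, was dim in control CMPs and read 0.57, 1.01 and 1.61 at day 4, day 6 and day 8. At day 8 it was at least 114-fold higher than in control. Of the 11 measured genes of the type I arm, 4 rose past 2-fold at day 8 (Ifnb1, Irf7, Stat2 and Usp18) and none fell, with a median change of 0.22. Irf7 was 6.38-fold higher, Irf9 had a change of 0.01, and Stat2, with levels of 2.75, 4.81, 4.84 and 4.95, was 4.58-fold higher.

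In the interferon gamma arm 4 of 10 measured genes were past 2-fold higher and 1 was lower at day 8. Irf1 read 3.26, 4.24, 4.21 and 4.59, a log2 change of 1.32 ± 0.20 at day 8, and Nlrc5 had a change of 1.66. The receptor genes Ifngr1 and Ifngr2 had changes of -0.24 and 0.06. Irf8, a factor of myeloid cells, fell by 3.17. The median of the arm was -0.09 at day 8, and it was 0.12 with normexp and 0.097 with quantile normalization, so it has no settled sign.

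Of 9 genes chosen as type I targets, 8 were past 2-fold higher at day 8, with a median of 1.84, led by Rsad2 (28.8-fold), Ifit1 (11.5-fold) and Ifit3 (6.46-fold). Of 12 measured interferon gamma targets, 6 were higher and 2 lower, with a median of 0.98. The chemokine gene Cxcl9 was at least 45.6-fold and the ubiquitin-like gene Ubd at least 37.3-fold higher than their dim control values. Cxcl10 had a mean change of at least 5.29, but its probes disagreed, with 7.33 for one and at least 3.24 for the other, which was dim in the control. The lists overlap in biology, since many of these genes respond to both kinds of interferon.

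**Figure D5:**
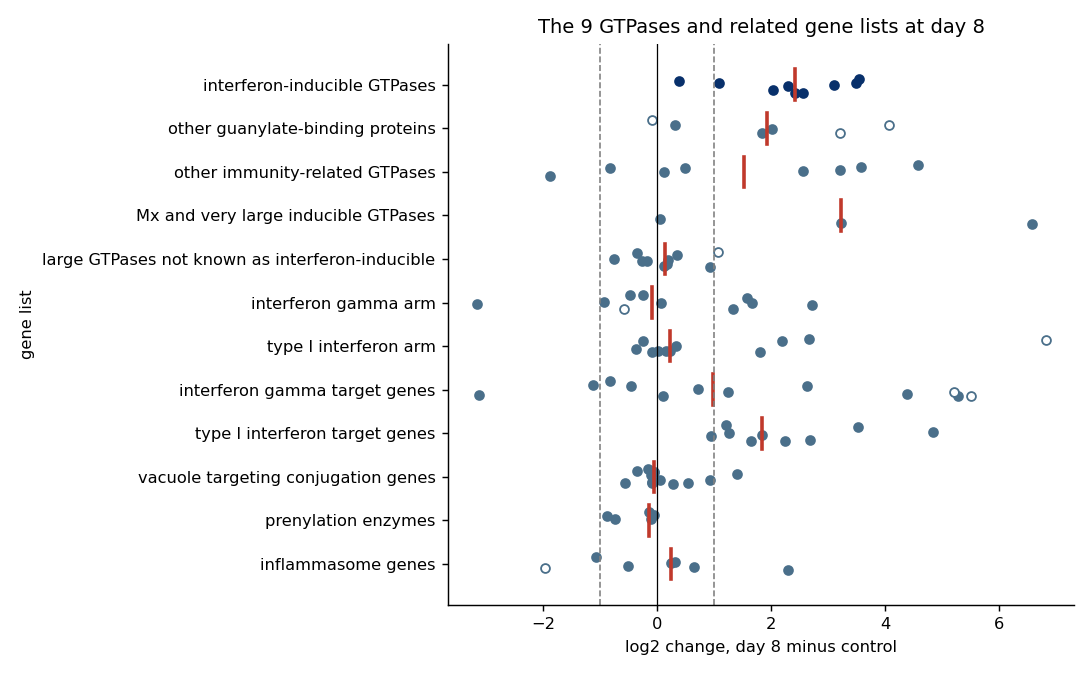
Log2 change from control to day 8 of every measured gene in the 9 GTPases (top row, dark) and in 11 related lists, 1 row per list. Open circles are genes at background on the control array, the day 8 array or both, for which the value is a bound, red bars are list medians, and dashed lines mark 2-fold. Cxcl10 and Traf6, with a dim probe in the control, are drawn filled although their values are also bounds. The median of the 9 GTPases is 2.42, and those of the vacuole targeting genes (with a sign that turns under normexp and quantile normalization) and prenylation genes are -0.05 and -0.14.

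Genes through which these GTPases work were read from 3 lists, to be set against the 11.9% of all genes that were higher and the 10.5% that were lower at day 8. Of 13 genes of the ubiquitin-like conjugation system that brings GBPs and immunity-related GTPases to vacuoles, 1 was past 2-fold higher at day 8 and none lower, with a median of -0.05 that became 0.056 with normexp and 0.065 with quantile normalization. That gene was Trim21, a ubiquitin ligase and antibody receptor, with a change of 1.39 ± 0.20, followed by Traf6 at 0.92 or more and Atg3 at -0.57. The Traf6 value is a bound because a probe of it was dim in the control, so whether Traf6 passed 2-fold is not known. None of the 5 enzymes that attach or mature prenyl groups, which anchor several GBPs in membranes, passed 2-fold, and the furthest from 0 were Rce1 at -0.89 and Icmt at -0.74. Of 7 measured inflammasome genes, 1 was higher and 2 lower. Il18 was 4.91-fold higher, Casp1 fell by 1.08, and Aim2 fell by at least 1.96, since it was dim at day 8.

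Among 14536 genes well above background on all 4 arrays, the 5 whose changes were closest to the members' median changes over the 4 arrays were Calcrl, H2-Bl, Sema3b, F11r and H2-K2. Their Euclidean distances from the median pattern were 0.11 to 0.17 log2 units, and 74 genes that were not members lay within 0.5. Gbp7, at 0.01, and Tgtp1, at 0.15, were the members nearest to it, and Irgm1, at 3.12, the farthest. The median was the value of Gbp7 itself at day 6 and day 8 and that of Gbp3 at day 4. The short distance of Gbp7 therefore follows from how the median was taken. H2-Bl and H2-K2 are genes of the MHC class I family, Calcrl encodes a peptide hormone receptor, Sema3b a secreted guidance protein and F11r a junctional adhesion protein.

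Markers were checked for the identity of the cells. Their counts at day 8 are to be set against the 11.9% of all genes that were higher and the 10.5% that were lower. All 10 markers of mesenchymal progenitors were well above background on all 4 arrays. Ly6a, the gene of Sca-1, the antigen by which the cells are defined, was 6.47-fold higher at day 8, and Thy1, Eng and Itgb1 were past 2-fold lower. All 7 adipocyte markers were past 2-fold higher at day 8, and their summed level (in multiples of the 75th percentile) was 8.15, 47.9, 157 and 291 on the 4 arrays. Of 11 leukocyte markers, 10 were measured, and 1 was higher and 1 lower, near the shares of all genes. The summed level of these markers was 2.68, 2.61, 2.45 and 2.45. With dim values raised, their changes at day 8 ran from -2.58 (Lyz2) to 1.12 (Coro1a). Adgre1 was at -0.83, Csf1r at -0.73 and Ptprc, which marks all leukocytes, at 0.02. Cd68 was at 0.98 or more, since a probe of this gene was dim in the control. Whether Cd68 passed 2-fold is therefore not known. Laptm5 stayed at background on all 4 arrays.

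Of 6 T and NK cell markers, 3 were measured and none passed 2-fold, with summed levels of 2.94, 3.14, 3.37 and 3.21. Cd3g, Ncr1 and Klrd1 stayed at background throughout. Of 5 endothelial markers, 3 were past 2-fold lower, and their summed level went from 1.88 in control to 1.09 at day 8. Of 4 measured cardiomyocyte markers, 1 was higher and 1 lower. The part of these cell types in the change of the GTPases was not tested. In RNA from whole cultures, a change in the number of cells that express a gene and a change in the RNA of each cell cannot be told apart. Virus, the 4 factors, culture time and medium all differed between the control and the OSKM-CMPs, and their contributions cannot be told apart.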

How the data were processed

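Total RNA (250 ng per sample) was labelled with Cy3 and hybridised to 1-colour Agilent mouse arrays by the authors, 1 array for each of 4 conditions. The deposited scanner files hold intensities of each spot. Their headers name Feature Extraction 10.7.3.1 and the submitters' processing notes name version 9.5.3. The authors' deposited value table holds log2 processed signals shifted by a constant on each array and was used as an alternative.

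Spots with outlier flags were left out, log2 processed signals were averaged per probe, and each array was centred on its 75th percentile. Of 55681 probes, 35543 were well above background on at least 1 array and were kept. A dim value was raised to the lowest level well above background on its array where it lay under it, so that such changes are bounds. Probes were named by RefSeq accession (26750), symbol (3831) or older symbol (639), and kept probes of a gene were averaged. A gene was counted as higher or lower past 2-fold, with the brighter side well above background. The calculation was run on simulated arrays in which large changes were added to bright genes with small noise. That checks the arithmetic only, since changes in dim genes, disagreeing probes and spread between cultures were not simulated. All 9 members are described in full, and from each related list the 3 genes with the largest change at day 8 and fixed signalling genes are named, with a few further genes chosen after their values were seen. A gene that this rule names is not reported here. The members and lists were chosen with earlier results of these data known. Alternatives were normexp (offset 50) with quantile normalization (limma 3.58.1, R 4.3.3), quantile normalization, the array median as scale, other probe filters, no floor, the brightest probe, and thresholds of 1.5-fold and 3-fold. Python 3.11.15 and pandas 2.3.3 were used.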

Additional observations from a re-analysis of the deposited data

How the results depend on the processing

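The median change of the 9 GTPases at day 8 was 2.42, and it was 2.16 with normexp and quantile normalization and 2.29 with no filter on dim probes. Over the alternatives, with the shift of all genes under the array median taken out, it ran from 1.84 to 1.92 at day 4 and from 2.27 to 2.35 at day 6. With that shift left in, the medians were 1.70, 2.19 and 2.15 on the successive days. The median step from day 4 to day 6 was 0.36 with no filter. With a threshold of 1.5-fold, 2 genes passed between day 4 and day 6 (5.22% of all genes did), where none passed 2-fold. At day 4 the count was 7 of 9 with normexp (Tgtp1 at 0.87) and with no filter (Gbp7 at 0.94). The array median as scale moved all genes by -0.14, -0.13 and -0.27 at day 4, day 6 and day 8, and relative to that shift 8 of 9 passed on each day. Without taking out the shift it was 7 of 9 at day 4 and day 8, since Irgm2 stood at 0.90 and 0.81.

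Some list medians changed sign, mostly those near 0. That of the interferon gamma arm at day 6 was 0.11 with normexp, 0.086 with no filter and 0.17 with probes well above background on all 4 arrays. At day 8 it was 0.12 with normexp and 0.065 with probes above background on all 4 arrays, and quantile normalization gave 0.097. At day 4 it was 0.13 with normexp, 0.038 with no filter and 0.26 with the latter probes. The vacuole targeting genes at day 8 had 0.056 with normexp and 0.065 with quantile normalization. That of the T and NK cell markers at day 8 was -0.038 with no filter. That of the large GTPases not known as interferon-inducible at day 8 was -0.13 with the brightest probe. With probes above background on all 4 arrays, 1 cardiomyocyte marker was left, at -1.42, -0.87 and -1.60. The cause of the other sign changes was not tested.

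With 1 array per condition, no spread between cultures is known, and the errors given are those within an array. No paired analysis was possible because there was a single array for every condition. Control signals at background limit the values given for Gbp4, Gbp11, Dnm3, Ifnb1, Cxcl9 and Ubd to bounds. A probe at background in the control does the same for Cxcl10, Traf6 and Cd68.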
